A study of Mus musculus with 8 samples.

Results

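Glutamate receptor genes and the genes of AMPA receptor auxiliary subunits were compared between brain RNA of control mice and of mice with a conditional knockout (cKO) of Akap11. The set was a fixed list of 30 genes, named by symbol and not by their level. It held 4 AMPA, 6 NMDA, 5 kainate, 1 delta and 6 metabotropic receptor genes, with 6 transmembrane AMPA receptor regulatory proteins (TARPs) and 2 cornichons. All 30 were found among the 57186 genes listed, and all 30 were among the 16766 genes with enough reads to test. The series has 8 libraries of total RNA from mouse brain, 4 from control mice and 4 from the cKO mice. Genotype is the only stated difference between the groups. The labels used here name no brain region, age, sex or strain, and neither the recombinase, the cells it acts in, the deleted exons nor the alleles of the controls. They do not tie each library to its own mouse, and p-values reflect the spread among libraries, which may be technical. In bulk tissue, fewer cells of a type and less RNA per cell cannot be told apart.

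Ionotropic glutamate receptors are tetrameric cation channels that open on binding glutamate. AMPA receptors carry most fast excitatory current, NMDA receptors need a co-agonist and relief of magnesium block and admit calcium, and kainate receptors act on both sides of the synapse. Metabotropic receptors signal through G proteins, and their group II and III members lower cAMP, the messenger that activates protein kinase A (PKA). AKAP11 is an anchoring protein of that kinase, and the AMPA subunit encoded by Gria1 is a known PKA substrate. The series title ties AKAP11 to the PKA network and to synaptic transmission, and receptor transcripts are 1 readout that bears on this. Counts of RNA show neither receptor protein, nor its phosphorylation, nor current.

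AMPA and kainate subunits share a codon whose identity sets calcium entry through the channel. It codes for the glutamine at the Q/R site of the pore loop, which RNA editing recodes in nearly all Gria2 transcripts and in part of those of Grik1 and Grik2. The stretches below show the codon in the AMPA and kainate genes, among them those of the Gria1 to Gria2 and Grik5 to Grik2 ratios. Each has 27 bases of the reference transcript, 5′ to 3′, from the GENCODE M21 transcripts, with the glutamine codon in capitals. They were found by an in-frame search of the coding strand for the codons ATG, CAN and CAN followed by GG, with N limited to A or G.
Gria1: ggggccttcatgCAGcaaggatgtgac
Gria2: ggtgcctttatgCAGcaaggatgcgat
Gria3: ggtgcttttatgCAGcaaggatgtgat
Gria4: ggtgcctttatgCAAcaaggatgtgac
Grik1: ggagctctcatgCAGcaaggatcggag
Grik2: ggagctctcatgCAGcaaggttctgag
Grik3: ggctccctgatgCAGcaaggatctgaa
Grik4: ggaggcttcatgCAGcaaggctccact
Grik5: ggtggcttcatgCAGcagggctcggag
All 9 AMPA and kainate genes held the codon once in frame, as CAA in Gria4 and as CAG in the other 8. The search covered the 29 members with a complete coding sequence and found the match in these 9 alone. Read counts per gene do not show how much of a transcript is edited.

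Akap11, the check of the labels, was lower in each cKO library (220, 214, 237 and 240 CPM in replicates 1 to 4) than in each control library (373, 312, 315 and 291 CPM). CPM are counts per 1000000 reads after TMM scaling, which corrects library totals for composition. Reads in genes ranged from 13841218 to 19991942 per library. The share of listed reads assigned to genes was 63.8% for cKO replicate 1 and 73.7% to 79.7% elsewhere. Of the reads of cKO replicate 1, 10.41% were not aligned, 10.13% ambiguous and 7.18% too low in alignment quality. Elsewhere these shares were 3.31% to 6.66%, 5.14% to 6.16% and 2.15% to 4.04%. Its shares with no feature and with no unique alignment were 4.35% and 4.10%, against 4.77% to 6.04% and 4.26% to 4.39%. Fold changes without cKO replicate 1 are given for many of the genes. Markers of neurons, astrocytes, oligodendrocytes and their precursors, microglia and endothelium were found in all 8 libraries, with no marker at 0 throughout. Of the cerebellar granule cell markers, Gabra6 had 0, 71, 7 and 0 reads in control replicates 1 to 4 and 0, 2, 3 and 17 reads in cKO replicates 1 to 4. The other 5 summed to 25 to 47.4 CPM in control and 26.7 to 31.4 CPM in cKO libraries, of which Zic2 gave 20.9 to 25.6 CPM in every library. Cbln3 and Fat2 were highest in control replicate 2, at 13.2 and 6.31 CPM. The 6 thalamic markers summed to 353 to 399 CPM in control and to 325 to 345 CPM in cKO libraries, without overlap. The sums of every other marker list overlapped between the groups. Among single genes, 1.39% of all tested were lower in cKO without overlap. All 6 thalamic markers had negative log2 fold changes, and 0 passed the adjusted test. An unadjusted edgeR p under 0.05 was reached by 2, against 1.91% of all genes tested in that direction. The part of the thalamic difference in the values below was not tested.

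No difference between the genotypes passed the test in any of the 30 genes. Of these genes, 0 passed edgeR's quasi-likelihood test with Benjamini-Hochberg adjustment over all genes (adjusted p from 0.889 to 0.997), where 0.0239% of all genes tested passed. An unadjusted p under 0.05 was also reached by 0 of 30, against 4.78% of all genes, and DESeq2 and limma voom likewise gave 0 calls and 0 unadjusted p under 0.05 among the 30. In 0 of 30 did the 4 cKO libraries all lie above or all below the control libraries, against 2.96% of all genes. Of the 30 log2 fold changes (cKO minus control), 17 were positive and 13 negative. Their median was 0.01, beside 0.0034 over all genes tested, and they ran from -0.18 for Grin2b to 0.15 for Cnih2 and Grin2d.

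The data bound how large a change could have been. For 30 of 30 genes the 95% interval of the fold change lay within 1.5-fold up or down, against 76.8% of all genes tested and 99.3% of genes with a mean of at least 10 CPM. It lay within a rise of 25% and the fall that would undo it for 26 of 30 genes, or 86.7%, against 53.5% and 83.6%. With 1 library left out, all 30 stayed within 1.5-fold, and 20 (without cKO replicate 4) to 29 (without cKO replicate 1) within the narrower bound. The interval ends farthest from 0 were 0.41 for Grin2d and -0.39 for Grin2b. They apply to bulk RNA, where Akap11 itself was 29.3% lower, and not to single cell types. Between 226 and 13065 reads stood behind each gene in each library. Summed by class, in CPM per kilobase of exon, AMPA genes averaged 175 ± 7.44 in control and 164 ± 10.8 in cKO libraries (SD, n = 4 per group), and AMPA auxiliary genes 304 ± 8.38 and 322 ± 32.4. The sums of NMDA genes were 79.3 ± 4.4 and 78.8 ± 6.08, of kainate genes 64.6 ± 2.55 and 67.7 ± 5.72, and of metabotropic genes 77.1 ± 3.06 and 74.8 ± 1.34. In each of these classes the range of the cKO libraries overlapped that of the controls.

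**Figure D1:**
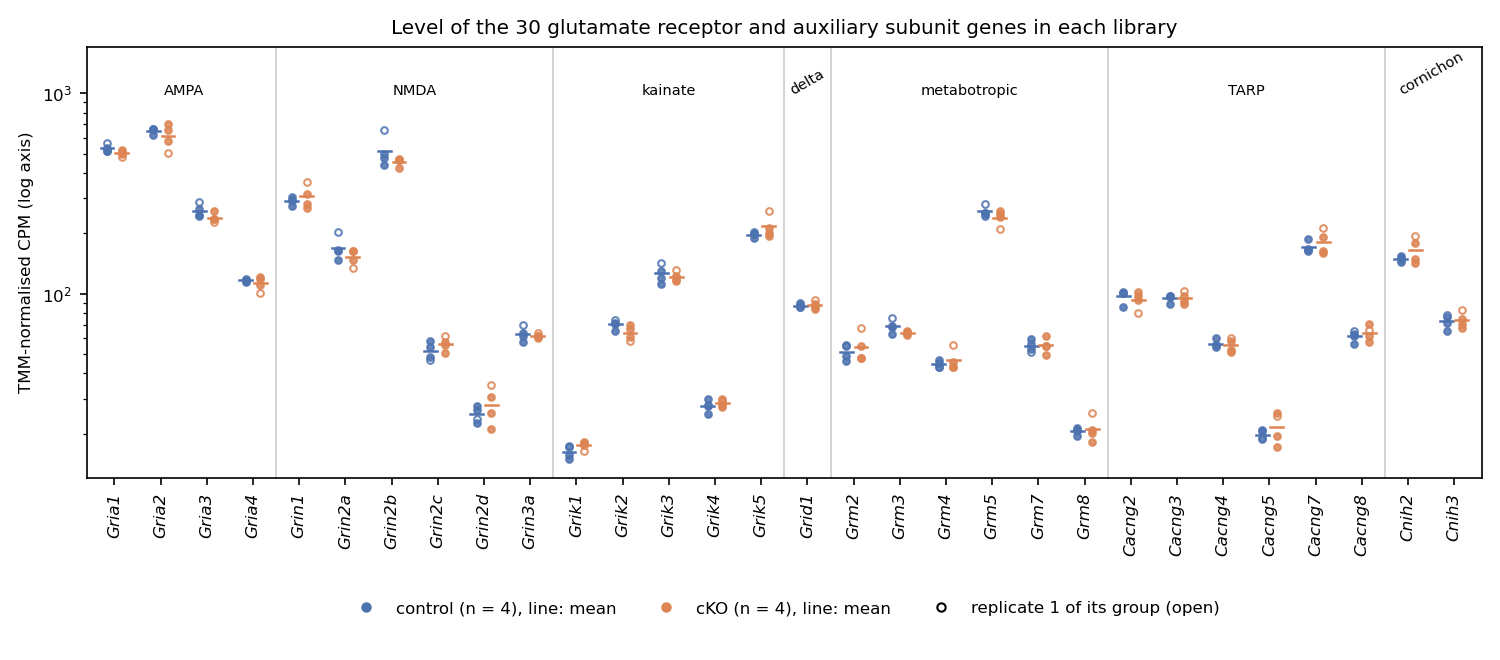
Level of each gene (TMM-normalised CPM, log axis) in the 4 control (blue) and 4 cKO (orange) libraries, with horizontal lines at group means and open circles for replicate 1 of each group. The groups overlap for all 30 genes, and cKO replicate 1 is often the highest or lowest point.

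The AMPA receptor genes encode the 4 pore-forming subunits GluA1 to GluA4. Gria1 (ENSMUSG00000020524), encoding the subunit that PKA phosphorylates, stood at 566, 533, 512 and 515 CPM in control replicates 1 to 4 and at 479, 509, 495 and 523 CPM in cKO replicates 1 to 4. Only cKO replicate 4 reached into the control range. The means were 532 ± 25 and 502 ± 19.1 CPM (SD, n = 4 per group), a log2 fold change of -0.08 (95% interval -0.20 to 0.03, edgeR adjusted p 0.889).

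Gria2 (ENSMUSG00000033981), whose edited subunit makes the channel nearly impermeable to calcium, was the most spread of the AMPA genes in cKO brain. It held 665, 666, 618 and 652 CPM in control and 506, 578, 657 and 700 CPM in cKO replicates 1 to 4. The cKO libraries thus spanned the whole control range, with the lowest in replicate 1 and the highest in replicate 4. Its log2 fold change of -0.09 (95% interval -0.25 to 0.07, edgeR adjusted p 0.895) moved to -0.02 without cKO replicate 1 and to -0.17 without cKO replicate 4.

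Gria3 (ENSMUSG00000001986), an X-linked AMPA subunit gene, had the lowest unadjusted p of the AMPA genes. Its values were 285, 263, 243 and 246 CPM in control and 228, 237, 236 and 258 CPM in cKO replicates 1 to 4. Replicates 1, 2 and 3 of the cKO group lay below every control library and replicate 4 lay among them. Its difference on the log2 scale was -0.11 (SE 0.062, 95% interval -0.24 to 0.02), with an edgeR p of 0.0825 before and 0.889 after adjustment. Gria4, the least abundant per length, ranged from 115 to 119 CPM in control and from 101 to 121 CPM in cKO libraries (-0.05). All 4 AMPA genes had negative log2 fold changes, with a median of -0.09. Gria4 turned to 0.01 when replicate 1 of both groups was left out, and Gria2 then stood at -0.0001.

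Levels of different genes were set side by side only per kilobase of annotated exon. On that scale Gria1 made up 50.4% ± 0.42 (SD, n = 4) of the AMPA transcripts in control and 50.6% ± 1.8 in cKO brain. Gria2 made up 24.0% ± 0.60 and 23.8% ± 1.9, Gria3 15.1% ± 0.48 and 14.8% ± 0.41, and Gria4 10.6% ± 0.30 and 10.9% ± 0.26. The order between Gria1 and Gria2 rests on the length used. Gria2 has 15548 bases of annotated exon but 2649 coding bases, against 6043 and 2721 for Gria1. Per kilobase of coding sequence Gria2 led, with 42.2% in control and 42.0% in cKO brain, and Gria1 followed with 33.6% and 33.9%. Per kilobase of exon, the mean shares of Gria1 and of Gria2 differed between the groups by less than the SD of the control libraries.

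**Figure D2:**
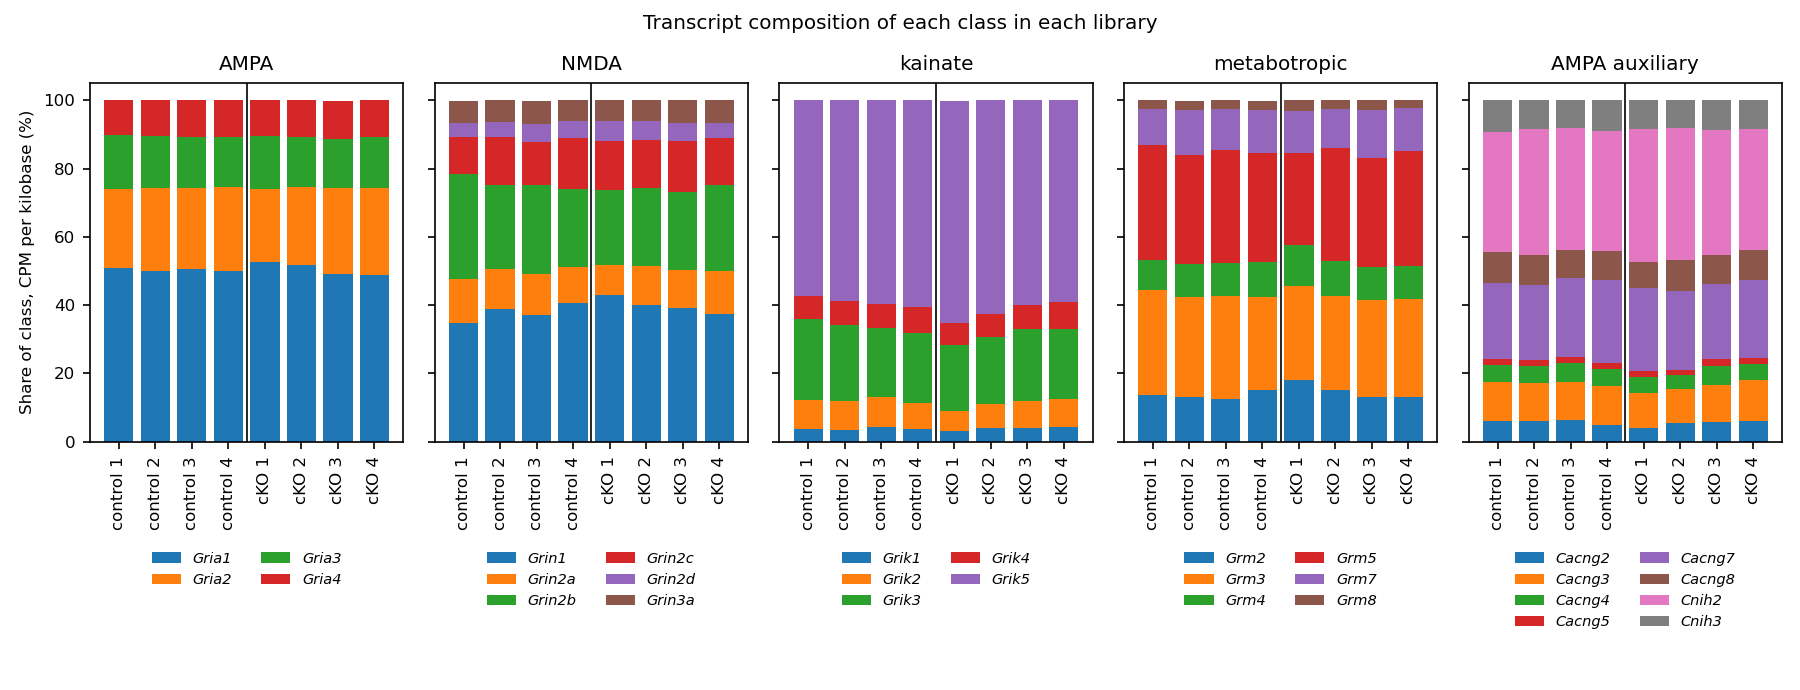
Share of each gene in the summed CPM per kilobase of its class (y axis, percent), with 1 bar per library and a line between control and cKO. In kainate, Grik5 takes 57.2% to 65.3% of the class, with the highest share in cKO replicate 1, and in AMPA, Gria1 takes 48.9% to 52.5%.

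NMDA receptors pair the obligatory GluN1 subunit, encoded by Grin1, with GluN2 or GluN3 subunits. Grin1 (ENSMUSG00000026959) had 289, 292, 275 and 303 CPM in control and 360, 316, 280 and 268 CPM in cKO replicates 1 to 4. The first 2 cKO libraries lay above every control library, the third among them and the fourth below. Its log2 fold change of 0.08 (95% interval -0.08 to 0.23, edgeR adjusted p 0.905) was -0.01 without cKO replicate 1 and 0.13 without cKO replicate 4. Of the exons of Grin1, 13.5% overlap the antisense gene Grin1os in the annotation. The strand setting of the counts is not given. Whether reads there were counted for Grin1, for Grin1os or as ambiguous is thus not known. The same holds for 9.66% of the exon bases of Grin2d, 9.60% of those of Grm2 and 5.86% of those of Cacng2.

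Grin2b and Grin2a encode the main forebrain GluN2 subunits, Grin2b prevailing early in development and Grin2a gaining with maturation. Grin2b (ENSMUSG00000030209) stood at 653, 475, 497 and 438 CPM in control and at 471, 466, 422 and 465 CPM in cKO replicates 1 to 4. Control replicate 1 was far above the other 7 libraries, which ranged from 422 to 497 CPM. The difference between groups was the lowest of the 30, at -0.18 on the log2 scale (95% interval -0.39 to 0.04, SE 0.099, edgeR adjusted p 0.889), and it was -0.04 without control replicate 1.

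Grin2a (ENSMUSG00000059003) behaved alike across the control libraries. It had 202, 164, 165 and 148 CPM in control and 135, 163, 148 and 164 CPM in cKO replicates 1 to 4, so the highest value was again that of control replicate 1 and the lowest that of cKO replicate 1. On the log2 scale the groups differed by -0.15 (SE 0.084, 95% interval -0.33 to 0.02, edgeR adjusted p 0.889), -0.06 without control replicate 1 and -0.0047 without replicate 1 of both groups. Grin2c, an NMDA subunit gene known for cerebellar granule cells, was at 46.9 to 58.0 CPM in control and 50.7 to 61.6 CPM in cKO libraries (0.11, or 0.06 without cKO replicate 1). Its part from cerebellar RNA was not tested. Grin2d, encoding a subunit with slow decay, ranged from 22.7 to 27.4 and from 21.2 to 34.9 CPM (0.15, or 0.03 without cKO replicate 1 and 0.26 without cKO replicate 4). Grin3a, encoding a glycine-binding subunit, ranged from 57.1 to 69.9 and from 59.9 to 63.5 CPM (-0.03).

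By CPM per kilobase, Grin1 made up 37.7% ± 2.5 of the NMDA transcripts in control and 39.9% ± 2.3 in cKO brain (SD, n = 4 per group). Among the 4 GluN2 genes, Grin2b led with 46.6% ± 4.0 and 43.5% ± 1.4. Grin2c followed with 23.5% ± 4.0 and 26.4% ± 1.5, then Grin2a with 21.3% ± 1.0 and 20.2% ± 2.2 and Grin2d with 8.57% ± 1.2 and 9.92% ± 1.7. Read within each library, Grin2c was ahead of Grin2a in all but control replicate 1 (18.5% against 22.3%), and their order changed with the length used. Per kilobase of coding sequence the order of the 3 most abundant was Grin2b (66.1% in control), Grin2a (22.1%) and Grin2c (8.16%). Within the whole class on that scale the order of Grin2b and Grin1 was not firm. Grin2b made up 39.2% and Grin1 34.4% in control brain, against 36.2% and 37.3% in cKO brain, or 36.7% and 36.2% without cKO replicate 1. Grin1 was ahead in control replicate 4 and in cKO replicates 1, 2 and 3, and Grin2b in the other 4 libraries.

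Kainate receptors combine the low-affinity subunits of Grik1 to Grik3 with the high-affinity subunits of Grik4 and Grik5. Grik2 (ENSMUSG00000056073), encoding GluK2, had the lowest unadjusted p of all 30 genes. It stood at 74.3, 71.7, 70.6 and 65.3 CPM in control and at 58.2, 61.1, 66.7 and 69.5 CPM in cKO replicates 1 to 4. The first 2 cKO libraries lay below every control library and the other 2 within the control range. Between the groups the log2 difference was -0.14 (SE 0.069, 95% interval -0.28 to 0.0036), with an edgeR p of 0.0555 before and 0.889 after adjustment. It was -0.10 without cKO replicate 1 and -0.19 without cKO replicate 4.

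Grik5 (ENSMUSG00000003378), encoding GluK5, which needs a GluK1 to GluK3 partner to form a channel, lay on the other side. Its levels were 199, 198, 189 and 203 CPM in control and 257, 213, 201 and 195 CPM in cKO replicates 1 to 4, with replicate 1 far above the rest. Its log2 difference of 0.13 (95% interval -0.02 to 0.28, edgeR adjusted p 0.889) fell to 0.04 without that library and was 0.18 without cKO replicate 4. Grik1 (0.10), Grik3 (-0.05) and Grik4 (0.05) had overlapping groups, at 15 to 18.2, 112 to 143 and 25 to 30 CPM over all 8 libraries. Grik3 stood at -0.10 without cKO replicate 1 and at 0.01 without control replicate 1. By CPM per kilobase Grik5 was the leading kainate gene, with 59.1% ± 1.4 in control and 61.7% ± 2.8 in cKO brain, followed by Grik3 with 21.8% ± 1.5 and 20.1% ± 0.83. Grik2 made up 8.24% ± 0.47 and 7.19% ± 1.1, or 16.8% and 15% per kilobase of coding sequence. Grid1 (ENSMUSG00000041078), a delta receptor gene whose product binds cerebellins and neurexins at synapses, was the steadiest receptor gene in control brain after Gria4. It was at 85.6, 89.7, 88.2 and 85.5 CPM in control and at 92.8, 85.7, 88.7 and 84.0 CPM in cKO replicates 1 to 4 (0.01, 95% interval -0.11 to 0.13, edgeR adjusted p 0.987). The coefficient of variation over the control libraries was 1.66% for Gria4 and 2.39% for Grid1.

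Among metabotropic receptor genes, Grm5 (ENSMUSG00000049583), encoding the group I receptor mGluR5 that raises intracellular calcium, was the most abundant per length. It held 281, 253, 253 and 244 CPM in control and 211, 250, 240 and 257 CPM in cKO replicates 1 to 4. Control replicate 1 was highest and cKO replicate 1 lowest, and the other 6 libraries lay between 240 and 257 CPM. The log2 fold change was -0.10 (95% interval -0.24 to 0.03, edgeR adjusted p 0.889), and -0.05 without cKO replicate 1.

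Grm3 and Grm2 encode the group II receptors, which lower cAMP, Grm3 in astrocytes as well as neurons. Grm3 (ENSMUSG00000003974) was at 75.9, 68.9, 68.3 and 62.9 CPM in control and at 64.5, 62.3, 63.4 and 65.3 CPM in cKO replicates 1 to 4. All 4 cKO libraries lay below control replicates 1 to 3 and around control replicate 4. The log2 fold change was -0.11 (SE 0.065, 95% interval -0.25 to 0.03), with an edgeR p of 0.106 before and 0.889 after adjustment, and it was -0.12 without cKO replicate 1 but -0.06 without control replicate 1. The summed astrocyte markers spanned 3593 to 4297 CPM in control and 3183 to 3805 CPM in cKO libraries, with control replicate 1 highest and cKO replicate 1 lowest. Most of that sum is Slc1a2. Of the 6 astrocyte markers 4 had positive log2 fold changes, and 1, the water channel gene Aqp4, rose by 0.46 (SE 0.067, edgeR adjusted p 0.0104), from 135 to 163 CPM in control to 186 to 218 CPM in cKO libraries. The part of astrocyte markers in the values of Grm3 was not tested. Grm2 ranged from 46.0 to 55.2 CPM in control and from 47.5 to 67.1 CPM in cKO libraries, and its log2 fold change turned from 0.08 to -0.04 without cKO replicate 1.

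The group III receptor genes Grm4, Grm7 and Grm8, whose products act mainly on presynaptic terminals, had log2 fold changes of 0.07, 0.01 and 0.03. Over all 8 libraries they ranged from 43.0 to 55.4, from 49.6 to 61.2 and from 18.1 to 25.3 CPM. In Grm4 and Grm8 the highest library was cKO replicate 1, and without it both turned, to -0.02 and -0.07. Grm4 is known, like Grin2c, for cerebellar granule cells. By CPM per kilobase, Grm5 made up 32.6% ± 0.92 of the 6 metabotropic genes in control and 31.3% ± 3.0 in cKO brain (SD, n = 4 per group), and Grm3 29.3% ± 1.4 and 28.0% ± 0.53. Per kilobase of coding sequence the shares were 44.4% and 42.5% for Grm5 and 16.3% and 15.5% for Grm3.

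TARPs carry AMPA receptors to the synapse and slow their closing. Cacng2 (ENSMUSG00000019146), encoding stargazin, had 101, 101, 102 and 86.2 CPM in control and 80, 102, 92.8 and 97.6 CPM in cKO replicates 1 to 4. Control replicate 4 stood below the other controls, and cKO replicate 1 was the lowest of all libraries. The log2 fold change of -0.06 (95% interval -0.22 to 0.09, edgeR adjusted p 0.913) was -0.0029 without cKO replicate 1. Cacng8 (ENSMUSG00000053395), the TARP known for the hippocampus, had 65.5, 63.1, 56.1 and 61.6 CPM in control and 66.0, 70.9, 57.4 and 61.4 CPM in cKO replicates 1 to 4, a log2 fold change of 0.05 (95% interval -0.10 to 0.21, edgeR adjusted p 0.923).

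Cacng7 (ENSMUSG00000069806) and Cacng5 (ENSMUSG00000040373) encode type II TARPs, which modulate AMPA receptors more weakly. Cacng7, the most abundant TARP per length, held 167, 163, 166 and 187 CPM in control and 212, 191, 159 and 164 CPM in cKO replicates 1 to 4. The first 2 cKO libraries lay above the controls, and the log2 fold change of 0.09 (95% interval -0.08 to 0.25, edgeR adjusted p 0.901) was -0.0005 without cKO replicate 1. Cacng5, the TARP with the lowest unadjusted p, was at 19.0, 20.8, 18.8 and 20.6 CPM in control and at 24.5, 17.2, 25.5 and 19.5 CPM in cKO replicates 1 to 4. Replicates 1 and 3 of the cKO group were above the controls, and replicate 2 was below them. Its log2 fold change was 0.13 (SE 0.11, 95% interval -0.10 to 0.36), with an edgeR p of 0.265 before and 0.896 after adjustment. It was 0.03 when cKO replicate 3 was left out, 0.23 when replicate 2 was, and 0.06 when replicate 1 was. Cacng3 and Cacng4 were at 88.5 to 103 and 51.2 to 60.4 CPM over all libraries, with log2 fold changes of 0.0018 and -0.02, or -0.04 and -0.07 without cKO replicate 1.

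Cornichons bind AMPA receptors, help export them from the endoplasmic reticulum and slow their kinetics. Cnih2 (ENSMUSG00000024873) was the most abundant auxiliary gene per length and had the second lowest unadjusted p of the 30 genes. It held 147, 154, 144 and 151 CPM in control and 193, 178, 149 and 143 CPM in cKO replicates 1 to 4. Again the first 2 cKO libraries lay above every control library, and the other 2 did not. Its log2 difference was 0.15 (SE 0.078, 95% interval -0.01 to 0.32), with an edgeR p of 0.0634 before and 0.889 after adjustment. It was 0.07 without cKO replicate 1 and 0.21 without cKO replicate 4. Cnih3, the related cornichon, was at 65.5 to 83.1 CPM over all libraries (0.02). By CPM per kilobase Cnih2 made up 35.8% ± 0.79 of the 8 auxiliary genes in control and 37.5% ± 1.6 in cKO brain (SD, n = 4 per group), Cacng7 23.0% ± 1.2 and 23.0% ± 0.86, and Cacng3 11.2% ± 0.20 and 10.7% ± 0.86. The least abundant was Cacng5, with 1.70% ± 0.063 and 1.77% ± 0.38.

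**Figure D3:**
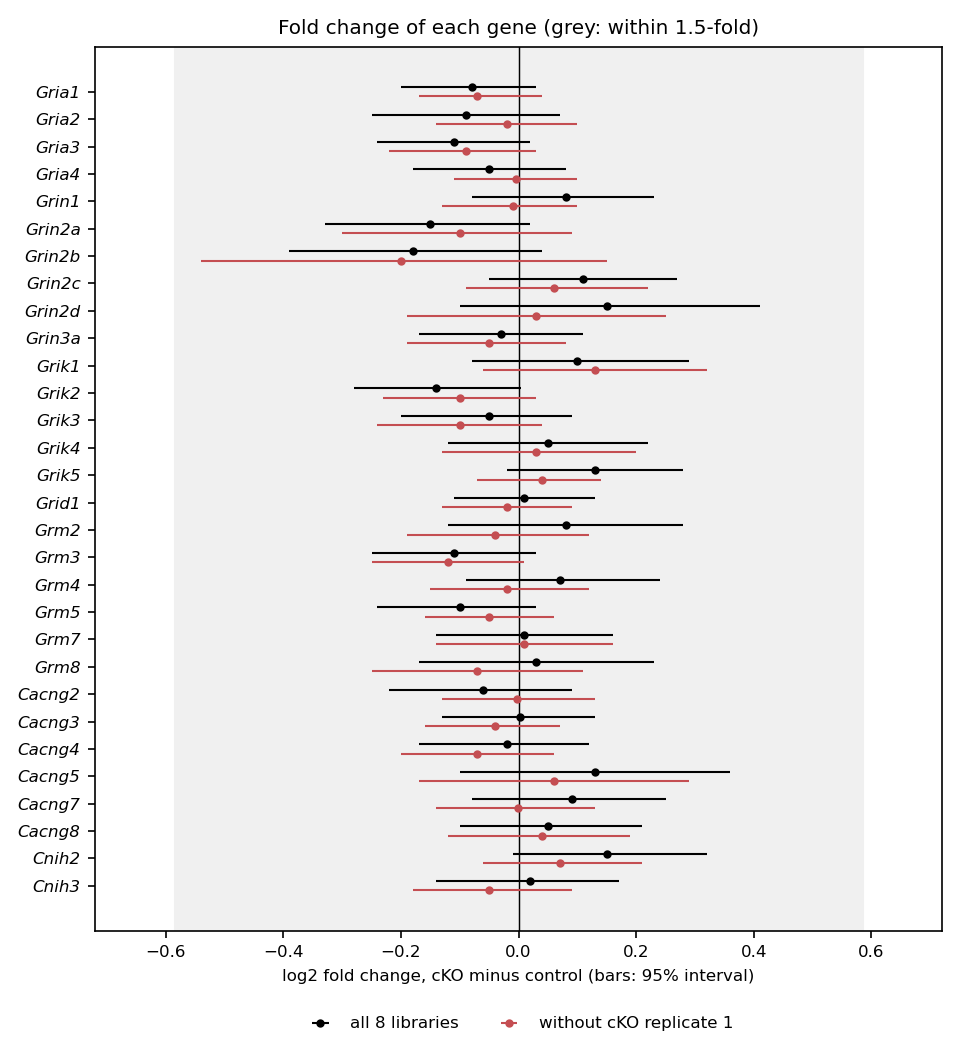
Log2 fold change of each gene (x axis, cKO minus control) with its 95% interval, from all 8 libraries (black) and without cKO replicate 1 (red). All 30 black and all 30 red intervals lie within the grey band of 1.5-fold, and each crosses 0.

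Ratios of 2 genes within a library do not depend on how libraries are scaled. Of the 5 ratios computed, each chosen for a known role, 0 passed in an exact permutation test (two-sided, 70 assignments, smallest possible p 0.0286). With Benjamini-Hochberg adjustment over 5 ratios, a single ratio at that p could not have passed. The log2 ratio of Gria1 to Gria2 counts, which bears on the share of receptors with the edited subunit, was -0.23, -0.32, -0.27 and -0.34 in control and -0.08, -0.18, -0.41 and -0.42 in cKO replicates 1 to 4. The cKO libraries fell on both sides of the controls, with a mean difference of 0.02 (exact p 0.83, adjusted 1). The ratio of Grin2a to Grin2b was -1.60 ± 0.070 in control and -1.58 ± 0.14 in cKO brain (SD, n = 4 per group; difference 0.01, exact p 0.857, adjusted 1). Without control replicate 1 that difference was -0.02, and without cKO replicate 1 it was 0.09 (exact p 0.0571 before adjustment). The ratio in cKO replicates 2 to 4 was -1.52, -1.51 and -1.50, above every control library (-1.69, -1.53, -1.59 and -1.57). In cKO replicate 1 it was -1.80, below every control library.

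Grik5 to Grik2 was the ratio with the largest difference. Its log2 values were 1.42, 1.46, 1.42 and 1.64 in control and 2.14, 1.80, 1.59 and 1.49 in cKO replicates 1 to 4. The first 2 cKO libraries lay above every control library and the other 2 within the control range. The difference was 0.27 (exact p 0.114, adjusted 0.571), 0.14 without cKO replicate 1 and 0.36 without cKO replicate 4. The longest transcripts of Grik5 and Grik2 have 61.7% and 37.9% GC, and fold changes ran with GC content, as described below. With offsets for GC content the log2 fold changes of these genes were 0.03 and -0.09. Such offsets were not applied to the ratios, and the part of GC content in them was not tested. Cacng8 to Cacng2 differed by 0.12 (-0.66 ± 0.16 against -0.54 ± 0.19, exact p 0.457, adjusted 1). That difference was 0.03 without cKO replicate 1, 0.05 without control replicate 3 and 0.18 without control replicate 4. Grm3 to Grm5 differed by -0.0016 (-1.90 ± 0.037 against -1.90 ± 0.13, exact p 1, adjusted 1).

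The 30 genes differ widely in base composition, and their fold changes ran with it. GC content of the longest transcript ran from 36.8% in Gria2 to 65.0% in Grin2d and Cacng8. Of the 9 genes with at least 55% GC (Grin1, Grin2c, Grin2d, Grik5, Grm2, Grm4, Cacng7, Cacng8 and Cnih2), 9 had positive log2 fold changes, with a median of 0.09. Of the 7 genes under 45% (Gria2, Gria3, Gria4, Grin2a, Grik2, Grm5 and Grm8), 6 had negative ones, with a median of -0.10. These 2 limits were set after the values were seen. Across the 30 genes, Spearman's rank correlation between GC content and log2 fold change was 0.76, against 0.49 over 10331 genes with a mean of at least 10 CPM, and 0.19 over the same genes without cKO replicate 1. The genes share the same 8 libraries and are not independent replicates.

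**Figure D4:**
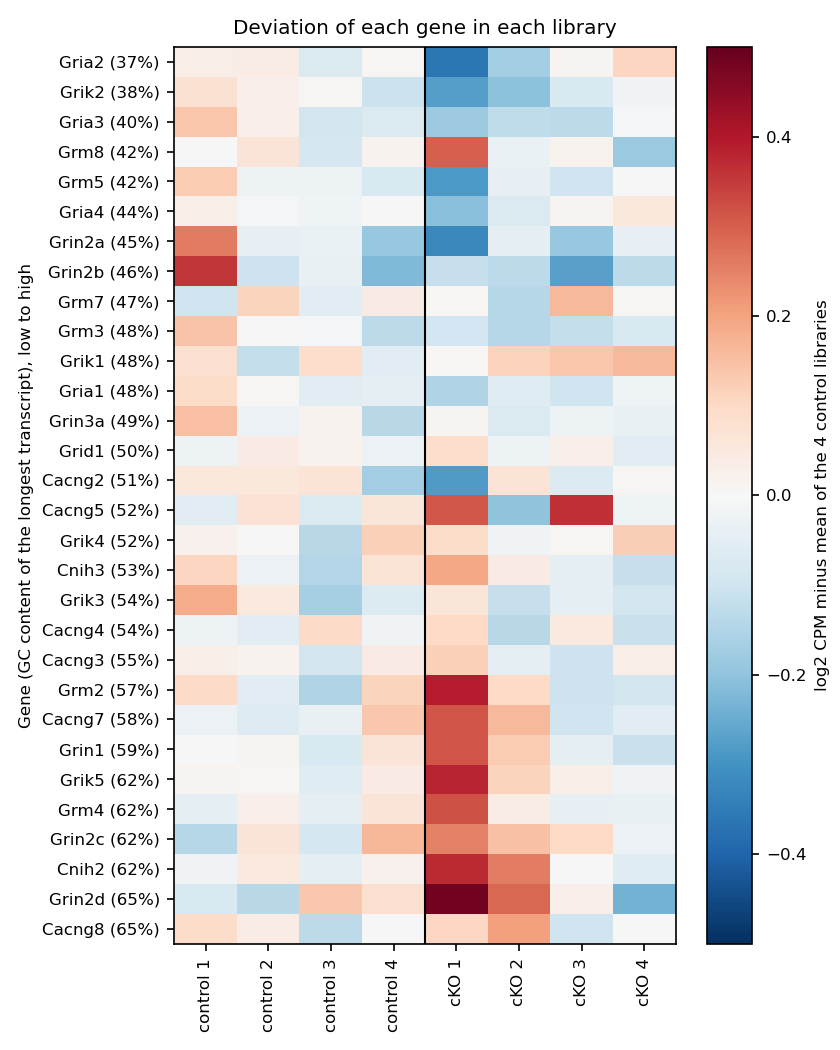
Log2 CPM of each gene in each library minus its mean over the 4 control libraries (colour), with genes ordered from low GC content at the top to high at the bottom. In cKO replicate 1 the GC-poor genes are mostly blue (lower) and the GC-rich genes red (higher); cKO replicate 2 shows a paler form of this.

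The relation was weaker without 1 library, cKO replicate 1. In cKO replicate 1, 8 of the 9 GC-rich genes had their highest value of all libraries, and 6 of the 7 GC-poor genes their lowest. Over the 30 genes, 13 were highest and 8 lowest in that library. The rank correlation between GC content and a gene's deviation from its mean was 0.75 in cKO replicate 1 and 0.63 in cKO replicate 2, but -0.31 and -0.64 in cKO replicates 3 and 4. In control replicates 1 to 4 it was -0.58, -0.64, -0.45 and 0.27. The cKO libraries were thus on both sides. Without cKO replicate 1, the rank correlation of the fold changes was 0.53, the 9 GC-rich genes divided into 5 positive and 4 negative, and 7 of 7 GC-poor genes were negative. Over all 30 genes the signs then turned from 17 positive and 13 negative to 9 positive and 21 negative, with a median of -0.02. With offsets for GC content the rank correlation was 0.32, with 12 positive and 18 negative genes, and none of the 30 genes passed the adjusted edgeR test in either fit (lowest adjusted p 0.989 and 0.949).

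**Figure D5:**
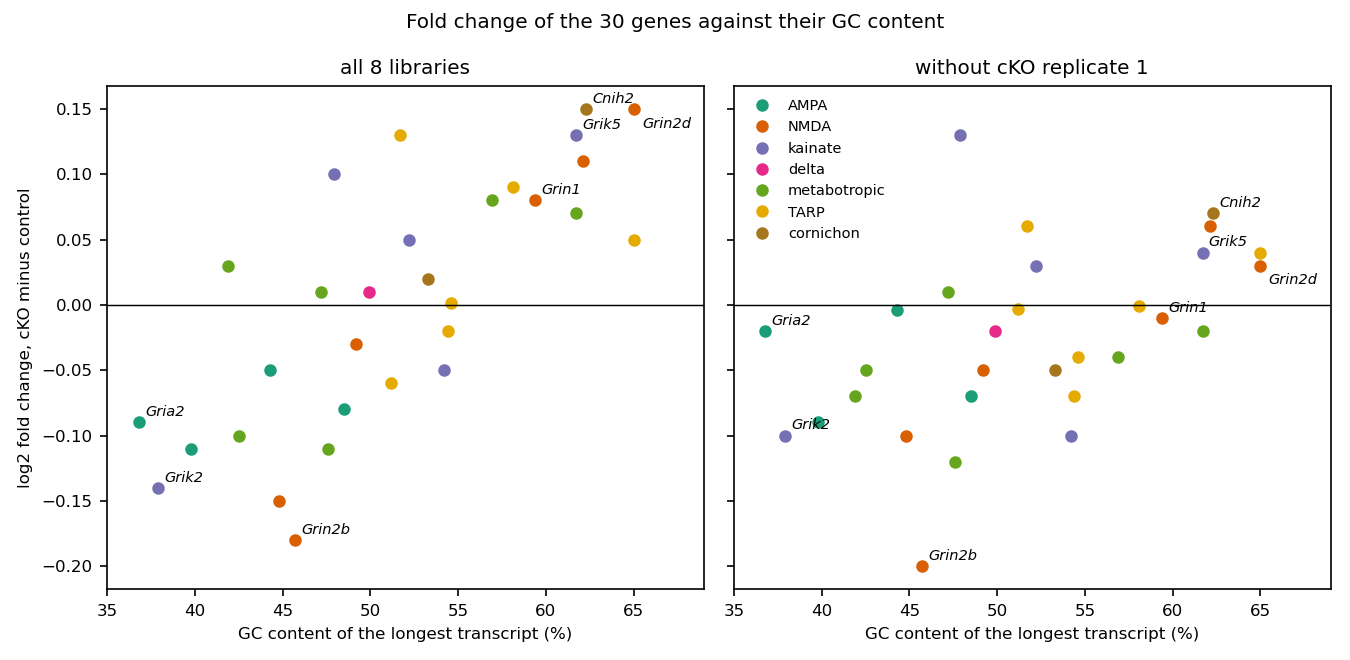
Log2 fold change (y axis, cKO minus control) against GC content of the longest transcript (x axis, percent) for the 30 genes, coloured by class, from all 8 libraries (left) and without cKO replicate 1 (right). The upward slope on the left (rank correlation 0.76) is shallower on the right (rank correlation 0.53), where Grin1 and Cacng7 lie at or below 0.

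Control replicate 1 held the highest value of all libraries for 9 genes, among them Gria1, Gria3, Grin2a, Grin2b, Grik2, Grm3 and Grm5. Their annotated exon lengths run from 3049 bases for Grm3 to 17933 for Grin2a and 24842 for Grin2b. In control replicate 1 the rank correlation of a gene's deviation from its mean was -0.58 with GC content and 0.48 with exon length. In cKO replicate 1 these were 0.75 and -0.48. Across the 30 genes the log2 fold changes had a rank correlation of -0.55 with exon length. It was -0.50 without control replicate 1, -0.46 without cKO replicate 1 and -0.25 without replicate 1 of both groups. With offsets for GC content and length it was -0.12. With those offsets most of the differences farthest from 0 were smaller: Grin2b stood at -0.08, Grin2a at -0.07, Grik2 at -0.06, Grin2d at 0.02, Grik5 at 0.02 and Cnih2 at 0.05. Cacng5 moved less, to 0.10. Others lay farther from 0 than without the offsets, among them Grm8 at 0.09, Cacng4 at -0.07, Grik3 at -0.08 and Cacng8 at -0.08. Under the offsets Grik1 stood at 0.11 and Grm3 at -0.11, though Grm3 was -0.06 without control replicate 1.

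Other genes of the glutamate synapse were read from the same fit. Of 61 genes in 5 lists, all tested, 0 passed in either direction, and an unadjusted edgeR p under 0.05 was reached by 1 higher and 2 lower genes, against 2.87% and 1.91% of all genes tested. Of the 61, 37 had negative and 24 positive log2 fold changes (median -0.04). Among 15 other AMPA receptor auxiliary and assembly genes, Porcn, whose product binds AMPA receptors in the endoplasmic reticulum, averaged 53.1 ± 2.97 CPM in control and 59.2 ± 4.31 CPM in cKO libraries (SD, n = 4 per group) (0.15, edgeR adjusted p 0.889), and Cnih1 at 51.8 ± 1.41 and 48.0 ± 2.33 CPM (-0.11). The kainate receptor auxiliary genes Neto1 and Neto2 had -0.10 and -0.05.

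Among 15 trafficking and adhesion genes, Akap5, which anchors PKA beside AMPA receptors at the postsynaptic density, had the lowest p. It held 159, 143, 130 and 123 CPM in control and 108, 130, 118 and 135 CPM in cKO replicates 1 to 4, and the groups overlapped (-0.18, SE 0.080, edgeR p 0.0413 before and 0.889 after adjustment). Lrrtm2, a synaptic adhesion gene, had -0.14. Of 18 scaffold and CaMKII genes, 0 reached an unadjusted edgeR p under 0.05, with Dlg1 at -0.10 and Shank1 at 0.12. Among 11 genes of glutamate supply, Slc1a2, the main astrocytic glutamate transporter, had 3103, 2600, 2707 and 2516 CPM in control and 2035, 2442, 2474 and 2581 CPM in cKO replicates 1 to 4. Control replicate 1 was the highest and cKO replicate 1 the lowest library, and its log2 fold change of -0.20 (SE 0.075) had an edgeR p of 0.0168 before and 0.889 after adjustment. Glul, encoding glutamine synthetase, had -0.10.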

How the data were processed

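Each library has a deposited table of raw counts by Ensembl gene, in whole numbers. Per the submitters' processing notes HISAT2 and GRCm39 were used; counting program, strand setting, annotation: not given in the sources used here. Of all listed reads, 63.8% to 79.7% lay in genes; the rest lay in 5 closing entries that name no gene and stayed out of totals and tests. Symbols (51880 of 57186 genes), exon lengths, GC content and transcript sequences came from GENCODE M21, which is on GRCm38, so no coordinates are printed. Genes kept by filterByExpr (16766 of 32202 with a read) were scaled by TMM and tested with edgeR 4.0.16 (robust quasi-likelihood, group only) in R 4.3.3; an adjusted p under 0.05 counted as a call. Exact permutation tests used scipy 1.17.1. The fit was tested on simulated data, with 50 genes changed at each fold. Of the changed genes tested, it called 26.0% at 1.25-fold, 66.0% at 1.5-fold, 83.3% at 2-fold and 93.6% at 3-fold. Of the unchanged genes, 9 were called. The simulated counts were drawn gene by gene, without shifts by GC content or length within a library. The rates thus do not cover such shifts, which the data show. Alternatives used DESeq2 1.42.0, limma 3.58.1, other scalings and filters, a replicate block and left-out libraries; loess offsets (span 0.5) for GC content and length were chosen after seeing the data.

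Members and lists were chosen with earlier results of these data known. Values in every library are given, by rule, for the most abundant member and the member with the lowest p of each class, those with separate groups or an outlying library, and those in the 5 ratios; context lists give the 2 lowest p.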

Additional observations from a re-analysis of the deposited data

Results flagged for a closer look

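In 70 groups of 4 libraries (30 levels and 5 ratios in each genotype), a gap test at the 95% level marked 4 libraries as far from the others, where chance marks about 1 group in 20. Grin2b stood at 422 CPM in cKO replicate 3, against 465 to 471 CPM in the other cKO libraries. Cacng2 stood at 86.2 CPM in control replicate 4, against 101 to 102 CPM in the other controls. The log2 ratio of Grin2a to Grin2b was -1.80 in cKO replicate 1, against -1.52 to -1.50. The log2 ratio of Grm3 to Grm5 was -1.96 in control replicate 4, against -1.89 to -1.88. No cause of these values was tested.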

How the results depend on the processing

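In all 18 alternatives 0 of the 30 genes passed the adjusted test. An unadjusted p under 0.05 was reached by 0 of 30 in the edgeR fit and by 5 with no filter on low counts, 1 with library totals, 1 with the replicate block and 0 to 6 with 1 library left out (6 without cKO replicate 4). Over all genes tested it was reached by 1659 of 32202 with no filter and by 1231 of 17043 without cKO replicate 4. In both of these settings the share was higher among the 30 genes. With library totals it was 820 and with the replicate block 682 of 16766. The 95% interval lay within 1.5-fold for 30 of 30 with any 1 library left out, and within a rise of 25% and its reverse for 20 without cKO replicate 4, 22 without control replicate 4 and 23 without cKO replicate 3, against 26 with all libraries. Over all genes tested, 4 passed in edgeR, 2 with limma voom, 7 with no filter, 2 without replicate 1 of both groups and 0 to 3 with 1 library left out. With the replicate number as a block 2 genes passed, and 0 of the 30. Same-numbered libraries had deviations correlated at -0.047 to 0.073 over 10368 genes, and others at -0.191 to 0.15, so the numbers were not taken as pairs. The context lists, read under every alternative as an addition made after seeing the data, held 0 calls.

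The sign of 14 genes held in all 19 settings and that of 16 did not; the cause was not tested. Without replicate 1 of both groups the log2 fold changes that turned were Gria4 0.01, Grin1 -0.01, Grin3a 0.01, Grid1 -0.03, Grm2 -0.0006, Grm4 -0.03, Grm7 -0.02, Grm8 -0.06, Cacng2 0.02, Cacng3 -0.03, Cacng7 -0.01 and Cnih3 -0.0049, with the ratio of Gria1 to Gria2 at -0.02. Offsets for GC content, chosen after seeing the data, turned Grin1 to -0.01, Grm4 to -0.03, Cacng3 to -0.04, Cacng8 to -0.07 and Cnih3 to -0.01; with length added the last 4 stood at -0.03, -0.05, -0.08 and -0.02. Cacng3, at 0.0018, was -0.0020 by DESeq2, -0.0014 by voom, -0.0013 with DESeq2 size factors, -0.0016 with no filter and -0.0001 with the CPM filter. With 1 library left out the ranges of genes of either sign were Gria4 -0.09 to -0.0039, Cacng2 -0.12 to -0.0029, Grin1 -0.01 to 0.13, Grin3a -0.08 to 0.02, Grik3 -0.11 to 0.01, Grik4 -0.0002 to 0.09, Grid1 -0.02 to 0.03, Grm2 -0.04 to 0.14, Grm4 -0.02 to 0.11, Grm7 -0.05 to 0.06, Grm8 -0.07 to 0.09, Cacng3 -0.04 to 0.03, Cacng4 -0.07 to 0.01, Cacng7 -0.0005 to 0.14, Cacng8 -0.0009 to 0.10, Cnih3 -0.05 to 0.06. Of genes of 1 sign they were Gria1 -0.11 to -0.05, Gria2 -0.17 to -0.02, Gria3 -0.15 to -0.06, Grin2a -0.22 to -0.06, Grin2b -0.26 to -0.04, Grin2c 0.06 to 0.17, Grin2d 0.03 to 0.26, Grik1 0.07 to 0.13, Grik2 -0.19 to -0.10, Grik5 0.04 to 0.18, Grm3 -0.16 to -0.06, Grm5 -0.14 to -0.05, Cacng5 0.03 to 0.23, Cnih2 0.07 to 0.21. Those of the ratios were -0.04 to 0.07 for Gria1 to Gria2, -0.02 to 0.09 for Grin2a to Grin2b, 0.14 to 0.36 for Grik5 to Grik2, -0.07 to 0.03 for Grm3 to Grm5 and 0.03 to 0.18 for Cacng8 to Cacng2.

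Per kilobase of coding sequence the control shares were 33.6% for Gria1, 34.4% for Grin1, 66.1% for Grin2b among GluN2 genes, 43.6% for Grik5, 44.4% for Grm5 and 31.7% for Cnih2, so shares within a class rest on the length used. Exons annotated but unused in brain were not removed.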
